A study of Salmo salar with 13 samples.

Results

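The comparison described here is the effect of photoperiod history on the saccus vasculosus (SV) transcriptome of Atlantic salmon, averaged over freshwater and seawater fish. It was the mean of the SPLL minus SP-hold difference in freshwater (FW) and the same difference after 24 h in seawater (SW), and it used all 13 libraries of the series. Fish of the SPLL group were moved to constant light for 8 weeks after 8 weeks under a short photoperiod, and they gave 2 libraries in FW and 4 in SW. Those of the SP-hold group stayed under the short photoperiod for all 16 weeks, and they gave 4 libraries in FW and 3 in SW. All were of the Aquagen commercial strain, parr of less than a year when allotted to tanks, with sex not determined. By gill and plasma measures the paper reports that SPLL fish smoltified and SP-hold fish did not. Photoperiod history and smolt status therefore cannot be told apart here. Of the 46395 transcripts tested, 555 had all 6 SPLL libraries above or below all 7 SP-hold libraries, and 100 of these also passed the test of the averaged contrast. These 100 transcripts are the members described below. Both groups had been raised under continuous light before the experiment. Seawater exposure took place under constant light for all fish. SP-hold SW fish thus also had 24 h of the light that SPLL fish had for weeks, and in this group salt and light cannot be told apart. Fish were kept in duplicate tanks, which the labels do not assign to libraries, and the p-values treat each library as an independent fish.

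The SV is a highly folded, vascularised sac on the ventral side of the fish brain, behind the pituitary, whose coronet cells face the cerebrospinal fluid of the third ventricle. It has been put forward as a sensor of day length in salmonids. Young salmon use the change from short to long days to time smoltification, the set of changes in gill, kidney, brain and behaviour that prepares them for the sea, and fish held on short days do not complete it. The photoperiod contrast therefore sets the SV of fish given a summer signal against the SV of fish held on a winter signal. Which transcripts differ by that history on average over both waters is the question of the contrast. Such a mean does not test that a change was present in each water.

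Between 15346418 and 26502552 reads were assigned per library, with 22239063 to 24840759 in SPLL and 15346418 to 26502552 in SP-hold. In SPLL SW replicate 3 only 54196 transcripts received reads, while 62912 to 69054 did in the remaining SPLL libraries and 64926 to 70193 did in the SP-hold libraries. Levels are given as CPM, reads scaled to a common library size, after TMM scaling, which corrects for the make-up of each library. Changes are log2 differences, SPLL minus SP-hold, with their standard error (SE). FDR is the Benjamini-Hochberg adjusted p of the edgeR quasi-likelihood test over all tested transcripts, with a threshold of 0.05. In bulk tissue, more RNA per cell and more cells of a type cannot be told apart.

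The averaged contrast called 234 transcripts, 0.504% of those tested. Of these, 103 (0.222%) were higher and 131 (0.282%) were lower in SPLL. The 6 SPLL and the 7 SP-hold libraries did not overlap for 1.2% of tested transcripts, 338 in the upward direction (0.729%) and 217 in the downward direction (0.468%). The transcripts that met both conditions were 57 higher (0.123%) and 43 lower (0.0927%) in SPLL. Without SPLL SW replicate 3 the contrast called 224 transcripts higher and 247 lower, and 97 of the 100 members were among these calls. Counts moved by over 1.5 times with each of the 13 libraries left out in turn, between 10 calls without SPLL SW replicate 4 and 471 without SPLL SW replicate 3. All 100 members kept their direction in every such fit that tested them, which the condition of no overlap all but fixes in advance. Only 1 member, gsnb, was called in all 13 of these fits, and the median number of fits that called a member was 3. In simulated data with the spread of these libraries the averaged contrast recovered 46 of 100 transcripts changed by 4-fold and 8 of 100 changed by 2-fold. It also called 15 of 46195 unchanged transcripts there, so the share of false calls was above the FDR threshold of 0.05. The changed transcripts of that simulation were picked from all tested ones (median 5.26 CPM, against 23.2 CPM for the members). It also held no trend on transcript length, so its rates are not those of the members.

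A name could be given to 44 members, 28 higher and 16 lower in SPLL. The changes of the 28 ranged from 0.30 to 1.17, and those of the 16 from -1.80 to -0.43. Their FDR values were close to the threshold, with 23 of the 44 above 0.04 and the highest at 0.0498. Of the 44 named members, 36 belong to transcript clusters that the study formed from these same libraries, and the direction of these 36 is therefore no separate evidence. In the study cluster described as higher in SPLL whatever the water, 19 of 24 transcripts rose, 0 fell, and 12 were members. In the one lowest in SP-hold SW, 21 of 45 rose and 10 were members, and in the one highest in SP-hold SW, 66 of 187 fell and 18 were members. The other 8 (PM14, Gm11992, cssa10h1orf52, c1qbp, TMEM59, rhoaa, SPRC and supt4h1) are named only in the study's list of abundant transcripts, and all 8 were higher in SPLL. That direction is shared by the list, where 1091 transcripts outside the clusters were tested. Of these, 14 were called higher and 0 lower, and 49 against 3 had no overlap.

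The member with the lowest FDR was gsnb, a gelsolin gene whose protein severs and caps actin filaments (ENSSSAT00000125665, chromosome 7 of Ssal_v3.1, 44983071 to 44991681). It had 30.7 and 29.5 CPM in SPLL FW and 23.9, 26.8, 29.8 and 25.5 CPM in SPLL SW, against 16.1, 15, 13.7 and 11.5 CPM in SP-hold FW and 12.2, 12.4 and 14.6 CPM in SP-hold SW. The lowest SPLL library was well above the highest SP-hold library. The averaged change was 1.06 ± 0.10 (SE, FDR 0.00663), with 1.1 in FW and 1.02 in SW.

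Other leading members act in the nucleus or outside the cell. The transcript of anp32b, an acidic nuclear phosphoprotein that binds histones (chromosome 4, 12868287 to 12877529), had 32.3 and 29.0 CPM in SPLL FW and 28.9, 25.3, 32.0 and 24.9 CPM in SPLL SW, against 20, 18.1, 24.0 and 20.7 CPM in SP-hold FW and 13.1, 14.2 and 12.4 CPM in SP-hold SW. The groups nearly met between SPLL SW and SP-hold FW, and the change was 0.82 ± 0.10 (SE, FDR 0.0193). For spon2b, a secreted spondin of the extracellular matrix (chromosome 9, 81339492 to 81347135), SPLL FW stood alone with 15.4 and 16.3 CPM. SPLL SW had 9.74, 8.96, 10.6 and 11.4 CPM, against 7.47, 8.72, 7.60 and 7.29 CPM in SP-hold FW and 5.45, 6.99 and 6.27 CPM in SP-hold SW. The averaged change of spon2b was 0.87 ± 0.11 (SE, FDR 0.0222), and it was larger in FW (1.03) than in SW (0.71), although the interaction test did not separate them (FDR 0.568).

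Among the members were 2 genes for proteins that carry fatty acids inside cells. The brain type fatty acid binding protein fabp7b, a product of radial glia in vertebrate brains (chromosome 6, 61824725 to 61827644), had 381 and 456 CPM in SPLL FW and 334, 329, 504 and 357 CPM in SPLL SW, against 214, 239, 290 and 258 CPM in SP-hold FW and 185, 203 and 207 CPM in SP-hold SW. Its change was 0.84 ± 0.12 (SE, FDR 0.0291), and SPLL SW replicate 3 held the highest value. The adipocyte type fabp4 had 16.0 to 34.7 CPM (median 21.1) in SPLL and 6.61 to 14.5 CPM (median 10.5) in SP-hold, a change of 1.12 ± 0.19 (SE, FDR 0.0426). The plasma carrier of retinol, rbp4, also rose (0.97 ± 0.16, SE, FDR 0.0411), but its groups overlapped by 1 SP-hold FW library at 365 CPM against 315 and 323 CPM in a pair of SPLL SW libraries.

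Members of the secretory pathway were also higher in SPLL. The transcript of manf, a protein of the endoplasmic reticulum (ER) that is induced by ER stress and partly secreted (chromosome 22, 55343908 to 55347740), had 44.0 and 48.6 CPM in SPLL FW and 41.2, 37.8, 48.7 and 39.9 CPM in SPLL SW, against 30.6, 32.6, 30.1 and 33.0 CPM in SP-hold FW and 20.4, 28.1 and 25 CPM in SP-hold SW. That is a change of 0.66 ± 0.09 (SE, FDR 0.0291) with a clear gap between the groups. SC61G, the gamma subunit of the channel that carries new proteins into the ER (chromosome 14, 25608514 to 25610709), had 76.4 to 158 CPM (median 85.8) in SPLL and 29.1 to 65.6 CPM (median 49.7) in SP-hold. It rose by 1.03 ± 0.18 (SE, FDR 0.0461), by 0.52 in FW and by 1.54 in SW. COPZ1, a coat subunit of the vesicles that return material from Golgi to ER, rose by 0.87 ± 0.15 (SE, FDR 0.0445) with groups that touched. Outside that pathway, the co-chaperone TEBP, also known as cytosolic prostaglandin E synthase, rose by 0.58 ± 0.08 (SE, FDR 0.0222). TEBP had an even 98.4 to 105 CPM in all 6 SPLL libraries, against 65.0 to 84.9 CPM in SP-hold FW and 56.1 to 62.8 CPM in SP-hold SW.

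Other members higher in SPLL included genes for serine synthesis, DNA precursors, ribosome assembly and translation, beside some with other roles. The transcript of psph, the last enzyme of serine synthesis (chromosome 20, 63083523 to 63087138), had 58.8 and 69.7 CPM in SPLL FW and 57.0, 59.3, 79.5 and 55.6 CPM in SPLL SW, against 36, 45.5, 40.6 and 38.8 CPM in SP-hold FW and 27.4, 34.4 and 35.1 CPM in SP-hold SW. The change was 0.82 ± 0.11 (SE, FDR 0.0272). MYCBP, which encodes a partner of the MYC transcription factor (chromosome 27, 36047066 to 36050187), had the largest change of the named members higher in SPLL. Its values were 35.2 and 43.0 CPM in SPLL FW and 35.2, 29.5, 60.8 and 34.1 CPM in SPLL SW, against 20.4, 18.4, 18.4 and 22.7 CPM in SP-hold FW and 15.3, 17.3 and 13.8 CPM in SP-hold SW (change 1.17 ± 0.17, SE, FDR 0.0291). The small subunit of ribonucleotide reductase, rir2, which is needed to make DNA precursors, rose by 0.75 ± 0.12 (SE, FDR 0.0373). The ribosome assembly factors mak16 and fcf1 rose by 0.70 ± 0.11 (SE, FDR 0.0411) and 0.79 ± 0.13 (SE, FDR 0.0413). The translation initiation factor IF1AX rose by 0.68 ± 0.10 (SE, FDR 0.0341), the Mediator subunit MED10 by 0.60 ± 0.10 (SE, FDR 0.0411) and lzic by 0.60 ± 0.09 (SE, FDR 0.0370). The nucleotide hydrolase dnph1 rose by 1.05 ± 0.19 (SE, FDR 0.0482) at a low level, with 3.89 to 6.70 CPM in SPLL and 1.72 to 3.67 CPM in SP-hold.

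**Figure D1:**
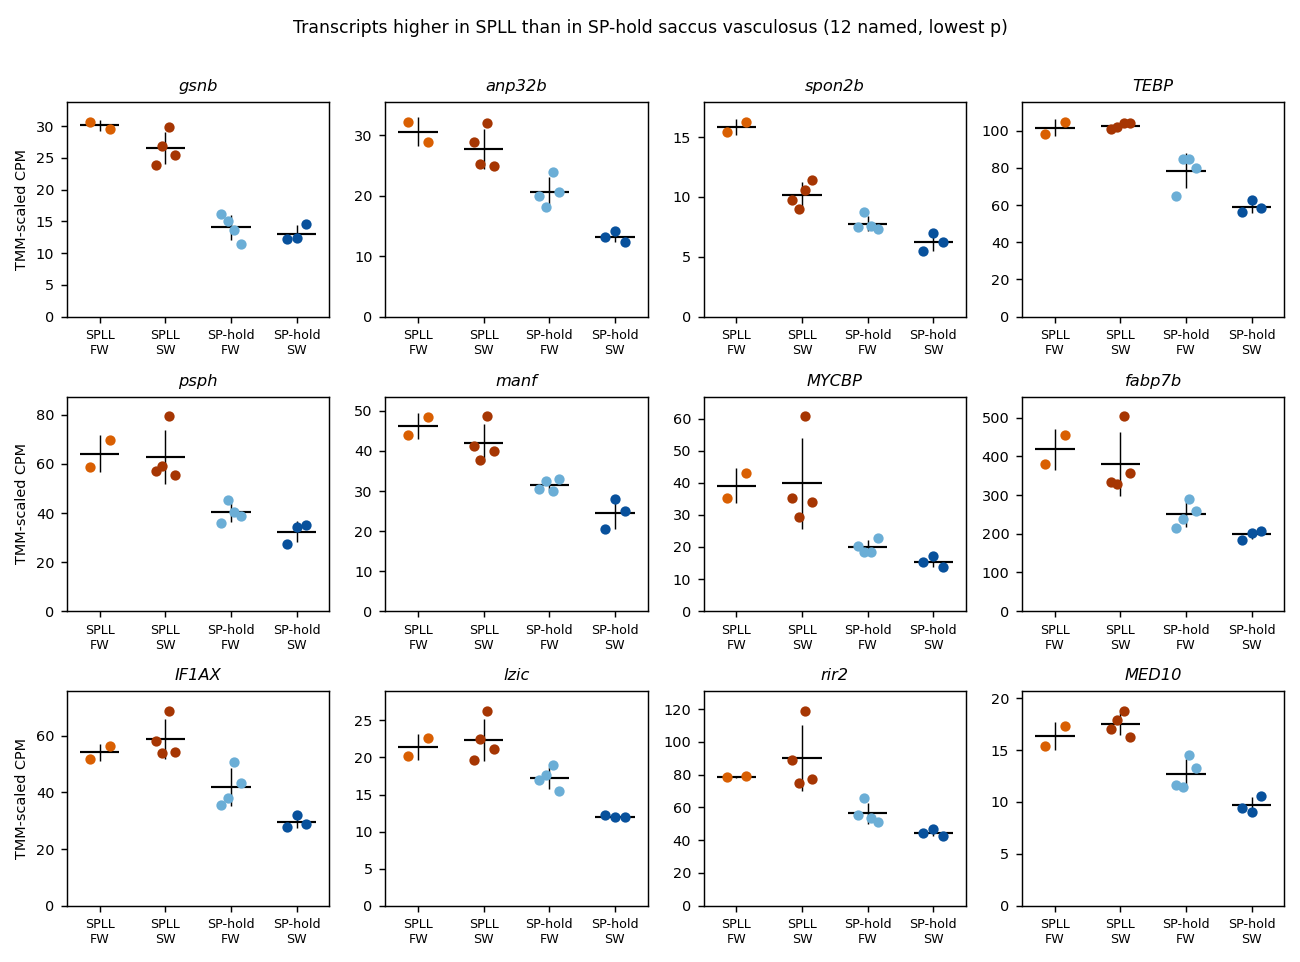
TMM-scaled CPM of the 12 named transcripts with the lowest p among those called higher in SPLL with no overlap, one panel each, in SPLL FW (n = 2), SPLL SW (n = 4), SP-hold FW (n = 4) and SP-hold SW (n = 3). Points are libraries, the horizontal bar is the group mean and the vertical line is the SD; in every panel all SPLL points lie above all SP-hold points, and SP-hold SW has the lowest mean.

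The 8 named members outside the study's clusters had changes from 0.30 to 0.78. SPRC, or SPARC, a matrix glycoprotein that binds collagen and calcium (chromosome 5, 9121431 to 9138616), was by far the most abundant member. It had 1310 and 1398 CPM in SPLL FW and 973, 972, 1198 and 988 CPM in SPLL SW, against 817, 928, 889 and 733 CPM in SP-hold FW and 749, 854 and 875 CPM in SP-hold SW, a change of 0.50 ± 0.09 (SE, FDR 0.0486). A transcript named sparc had the same direction and no overlap, but at 0.53 ± 0.10 (SE) its FDR of 0.0513 missed the threshold. The splicing factor PM14 rose by 0.54 ± 0.09 (SE, FDR 0.0447), the elongation factor supt4h1 by 0.78 ± 0.15 (SE, FDR 0.0498), the mitochondrial protein c1qbp by 0.59 ± 0.11 (SE, FDR 0.0476) and the small GTPase rhoaa by 0.30 ± 0.06 (SE, FDR 0.0482). Gm11992, cssa10h1orf52 and TMEM59 rose by 0.56, 0.43 and 0.40 with FDR values between 0.0465 and 0.0482. The exon junction protein magoh, from a study cluster, rose by 0.79 ± 0.15 (SE, FDR 0.0482).

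RASD1, a small G protein whose gene is induced by glucocorticoids, was the only member from the study cluster formed by transcripts that were higher in SW. It had 61.4 and 78.5 CPM in SPLL FW and 73.6, 61.3, 73.0 and 76.0 CPM in SPLL SW, against 32.3, 40.7, 42.6 and 41.4 CPM in SP-hold FW and 59.1, 61.2 and 59.2 CPM in SP-hold SW. Unlike the other members named so far, RASD1 was higher in SP-hold SW than in SP-hold FW, so that the photoperiod change was 0.83 in FW and 0.25 in SW (averaged 0.54 ± 0.09, SE, FDR 0.0448). The lowest SPLL and the highest SP-hold library nearly touched.

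The named members lower in SPLL included genes of ubiquitin handling and regulators of transcription. HUWE1, an E3 ubiquitin ligase (ENSSSAT00000106697, chromosome 13, 42960892 to 43053745), led with 57.3 and 53.9 CPM in SPLL FW and 46.7, 53.2, 48.1 and 53.8 CPM in SPLL SW, against 71.4, 67.7, 66.8 and 66.2 CPM in SP-hold FW and 92.4, 88.2 and 86.9 CPM in SP-hold SW. The 3 ranges stood in order, SPLL below SP-hold FW and SP-hold FW below SP-hold SW. HUWE1 fell by 0.56 ± 0.06 on the log2 scale (SE, FDR 0.0181), by 0.29 in FW and by 0.82 in SW. The deubiquitinase USP34 (chromosome 2, 53027703 to 53089031) had 29.3 and 28.4 CPM in SPLL FW and 24.2, 28.9, 22.6 and 26.1 CPM in SPLL SW, against 43.2, 38.1, 32.9 and 33.3 CPM in SP-hold FW and 55.6, 48.2 and 56.3 CPM in SP-hold SW. USP34 fell by 0.71 ± 0.10 (SE, FDR 0.0259). The transcript of ubap2b, a protein with a ubiquitin-associated domain (chromosome 24, 29306139 to 29335332), had 17.8 and 17.1 CPM in SPLL FW and 10.7, 12.6, 11.9 and 12.3 CPM in SPLL SW, against 23.7, 19.4, 19.2 and 19.6 CPM in SP-hold FW and 32.0, 24.5 and 28.9 CPM in SP-hold SW. Here the 2 salinities moved apart in SPLL as well, and the change of -0.74 ± 0.10 (SE, FDR 0.0246) was made of -0.23 in FW and -1.26 in SW.

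Regulators of chromatin and transcription made up the next group. The acetyltransferase EP300, which marks active enhancers, had a transcript from each of a pair of loci among the members. The one on chromosome 1 (88155726 to 88179122) had 15.8 and 12.1 CPM in SPLL FW and 10.7, 13.4, 13.8 and 14.7 CPM in SPLL SW, against 23.7, 18.3, 17.8 and 18.1 CPM in SP-hold FW and 34.5, 26.4 and 34.3 CPM in SP-hold SW, a change of -0.88 ± 0.13 (SE, FDR 0.0307). The one on chromosome 3 (66056743 to 66091944) was rarer, at 0.733 to 1.48 CPM in SPLL and 2.26 to 5.23 CPM in SP-hold, with a change of -1.80 ± 0.30 (SE, FDR 0.0411). Reads could be shared between such duplicate genes, and how the estimates divide them was not checked here.

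The corepressor RERE fell by 0.92 ± 0.14 (SE, FDR 0.0351), with 9.32 to 16.0 CPM in SPLL and 20.1 to 33.6 CPM in SP-hold. The GATA type repressor trps1 fell by 1.41 ± 0.22 (SE, FDR 0.0370), with SPLL values of 7.31, 7.02, 5.18, 8.44, 5.18 and 6.69 CPM against 9.41 to 23.9 CPM in SP-hold. Splicing and translation were represented by srrm1, a splicing coactivator (-0.57 ± 0.08, SE, FDR 0.0291), and gigyf2, a repressor of translation (-0.65 ± 0.09, SE, FDR 0.0259). A transcript with the mouse name Pkd1l2, whose salmon gene is described as polycystic kidney disease 1a, fell by 1.07 ± 0.16 (SE, FDR 0.0361). The zinc finger genes Zxdb and znf609b fell by 0.43 ± 0.07 (SE, FDR 0.0411) and 0.68 ± 0.11 (SE, FDR 0.0421). For n4bp2, ANKHD1 and slc39a6, a zinc transporter, the changes were -0.96, -0.62 and -0.46 with FDR values between 0.0411 and 0.0476. A transcript named prr36a by its position alone fell by 0.79 ± 0.11 (SE, FDR 0.0291). Every one of the 16 named transcripts lower in SPLL belongs to the study cluster whose transcripts were highest in SP-hold SW.

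**Figure D2:**
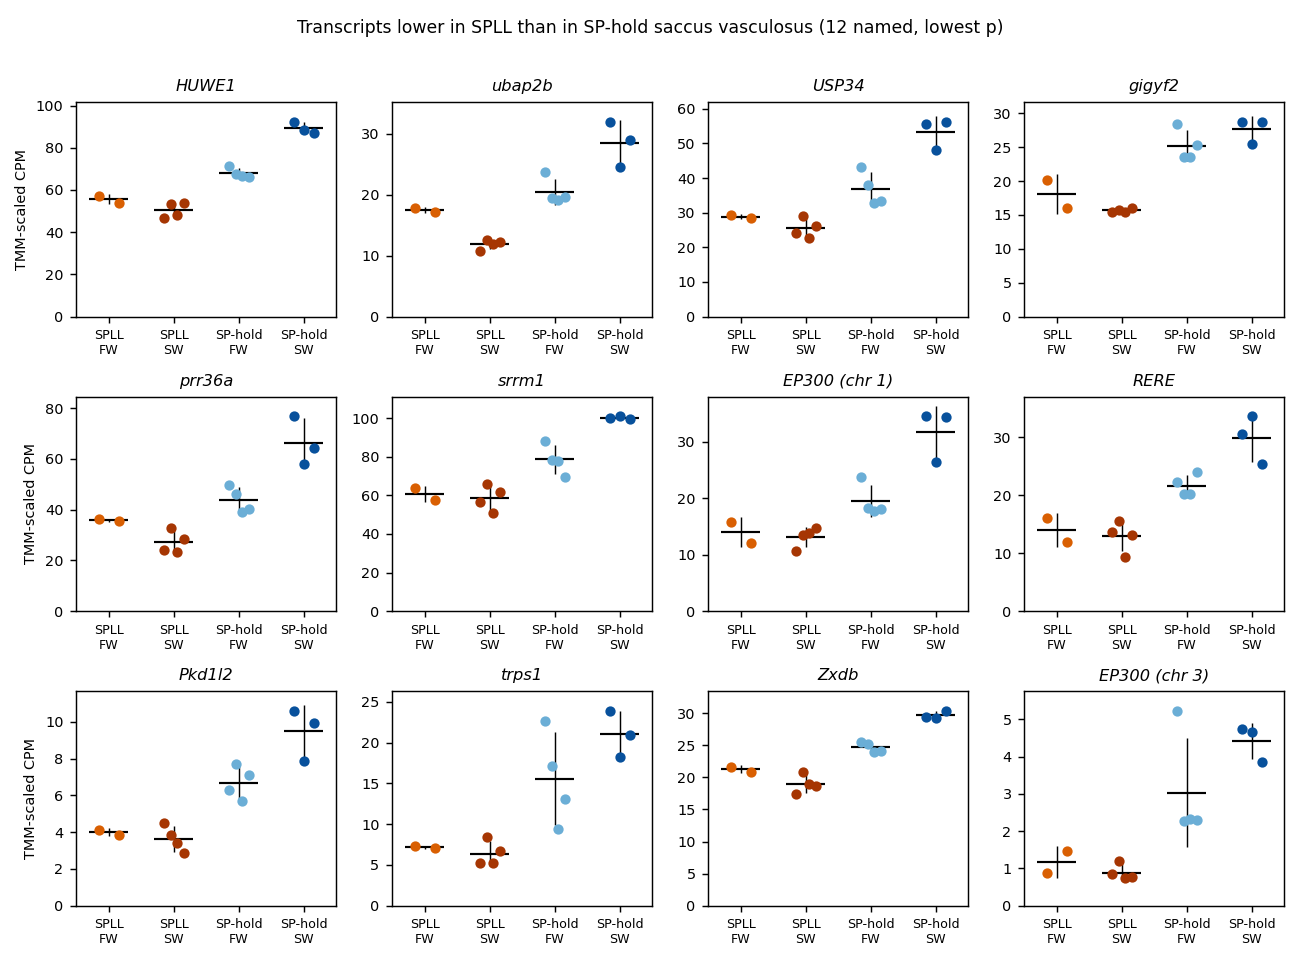
TMM-scaled CPM of the 12 named transcripts with the lowest p among those called lower in SPLL with no overlap, drawn for SPLL FW (n = 2), SPLL SW (n = 4), SP-hold FW (n = 4) and SP-hold SW (n = 3). Points are libraries, horizontal bars are means and vertical lines are the SD; all SPLL points lie below all SP-hold points, and the mean of SP-hold SW is the highest in each panel.

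Of the 100 members, 56 have no gene name in the tables used. The pair with the lowest p among those higher in SPLL was ENSSSAT00000216090, on chromosome 1, and ENSSSAT00000071938, on chromosome 5. ENSSSAT00000216090 had 44.5 to 77.7 CPM in SPLL and 18.7 to 28.4 CPM in SP-hold, a change of 1.18 ± 0.14 (SE, FDR 0.0193). ENSSSAT00000071938 had 211 to 270 CPM in SPLL and 115 to 206 CPM in SP-hold, a change of 0.74 ± 0.09 (SE, FDR 0.0193). Among those lower in SPLL, ENSSSAT00000213225 had 0.341 and 0.231 CPM in SPLL FW and 0.177, 0.661, 0 and 0 CPM in SPLL SW, against 1.43 to 5.87 CPM in SP-hold. ENSSSAT00000021410 had 0.877 and 1.25 CPM in SPLL FW and 0 CPM in each SPLL SW library, against 1.72 to 2.81 CPM in SP-hold. Such values at 0 in 2 or more libraries occurred in 8 of the 100 members, and the fitted fold changes of these are not given.

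The 100 members shared their direction in both waters by construction, but not their size. The change was larger in SW than in FW for 79 members, against 26372 of all 46395 tested transcripts. The median change of the 57 members higher in SPLL was 0.52 in FW and 0.90 in SW, and that of the 43 lower members was -0.48 in FW and -1.17 in SW. The edgeR test within SW called 90 of the 100 members, 50 higher and 40 lower (4.47% of all tested transcripts were called there, 1.94% higher and 2.53% lower). The edgeR test within FW, with 2 SPLL libraries, called 0 transcripts, while 9.39% of tested transcripts had an unadjusted p under 0.05. Those within-salinity calls use the same libraries as the contrast and add no separate evidence. The interaction test, which asks whether the change differs between the waters, called none of the 100 members (0.0474% of all tested transcripts, 0.0302% with a more positive and 0.0172% with a more negative change in SW), and 38 had an unadjusted p under 0.05, against 13.6% of all tested transcripts. Among the named members the interaction of ubap2b was closest to a call (FDR 0.0727), followed by prr36a (FDR 0.107) and HUWE1 (FDR 0.123).

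The SP-hold libraries differed between the waters. The SP-hold SW mean was further from SPLL than the SP-hold FW mean for 93 members, 51 of 57 higher and 42 of 43 lower ones. All 3 SP-hold SW libraries lay beyond all 4 SP-hold FW libraries, away from SPLL, for 51 members, and on the near side for 2 members, RASD1 and the unnamed ENSSSAT00000022440. The shares of all tested transcripts with these patterns were not counted, so these counts describe the members only. The SP-hold FW and SP-hold SW libraries did not overlap for 53 members (14.8% of all tested transcripts). The SPLL SW and SPLL FW libraries did not overlap for 19 members (22.5% of all tested transcripts), a count that rests on 2 SPLL FW libraries and cannot be set against that of SP-hold. Members with an equal or larger change in FW numbered 21, and among the named ones these were gsnb, spon2b, RASD1, SPRC, TMEM59 and cssa10h1orf52.

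**Figure D3:**
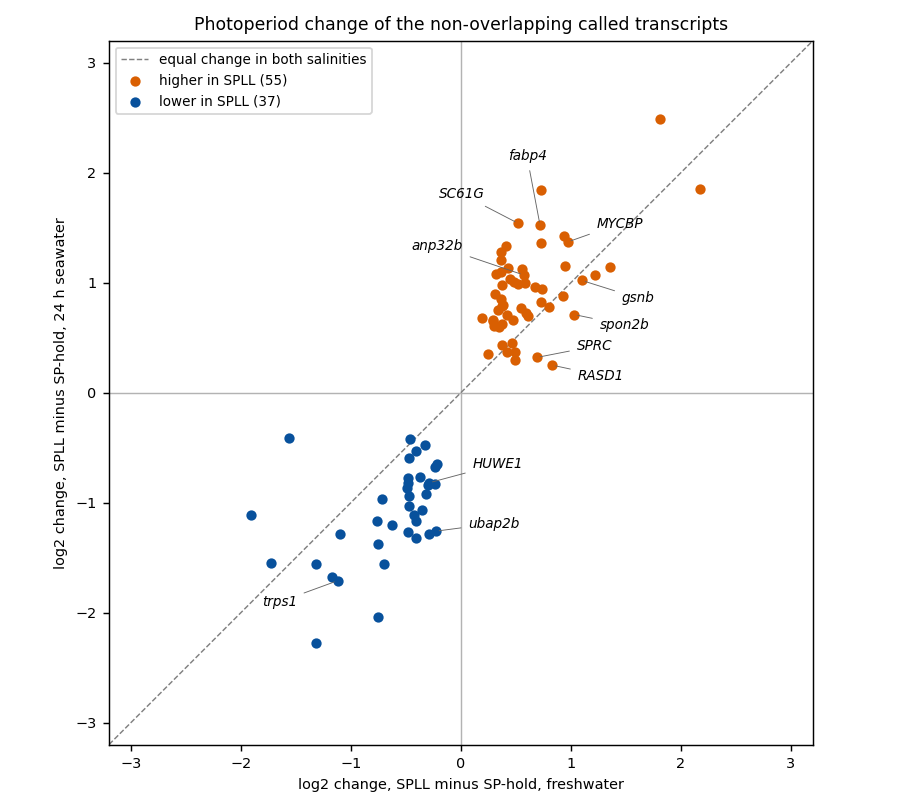
Log2 change, SPLL minus SP-hold, in freshwater (horizontal axis) and after 24 h in seawater (vertical axis) for the 92 members with fewer than 2 libraries at 0, 55 higher and 37 lower in SPLL. Each point is a transcript and the dashed line marks equal changes; most points lie on the seawater side of the line, while gsnb and spon2b lie at or on the freshwater side.

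Transcript length separated the members, although the rule did not use it. The members higher in SPLL had a median length of 1612 nucleotides (quartiles 1234 and 2583) and those lower in SPLL had 5676 (quartiles 4168.5 and 8587.5), against 3226 (quartiles 2111 and 4950) for all tested transcripts. The same order ran through the whole table. The median change was 0.38 over the 2074 tested transcripts of up to 1000 nucleotides, 0.17 above 1000 and up to 2000, -0.03 above that and up to 4000, -0.20 above that and up to 8000 and -0.31 over the 3321 transcripts above 8000, while it was -0.049 over all tested transcripts. The longest class held 12 members lower and 0 higher in SPLL, and the shortest 7 higher and 0 lower.

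The share of reads on the longest transcripts had a lower median in SPLL. Transcripts above 8000 nucleotides took 3.18 to 5.57% of reads in SPLL (median 4.39, from 3.53% without SPLL SW replicate 3) and 4.61 to 6.92% in SP-hold (median 5.48). Those up to 1000 nucleotides took 10.88 to 19.02% in SPLL (up to 15.06% without SPLL SW replicate 3) and 8.72 to 15.03% in SP-hold. These shares overlapped between the groups, and their part in the calls was not tested beyond a refit. When a smooth trend on length was taken out of each library, all 100 members kept their direction and 19 remained called, 12 higher and 7 lower. The named ones among these 19 were gsnb (1.00, FDR 0.0066), anp32b (0.86, FDR 0.0181), MYCBP, SC61G, spon2b, psph, fabp7b and lzic, higher in SPLL, and ubap2b (-0.68, FDR 0.0215), prr36a, srrm1 and trps1 (-1.24, FDR 0.0440), lower in SPLL. HUWE1 moved to -0.27 (FDR 0.145), USP34 to -0.44 (FDR 0.0706) and COPZ1 to 0.38 (FDR 0.175) in that refit. After this trend was removed, 64 of the 100 members still had no overlap in the same direction (0.901% of all tested transcripts, 237 higher and 181 lower).

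**Figure D4:**
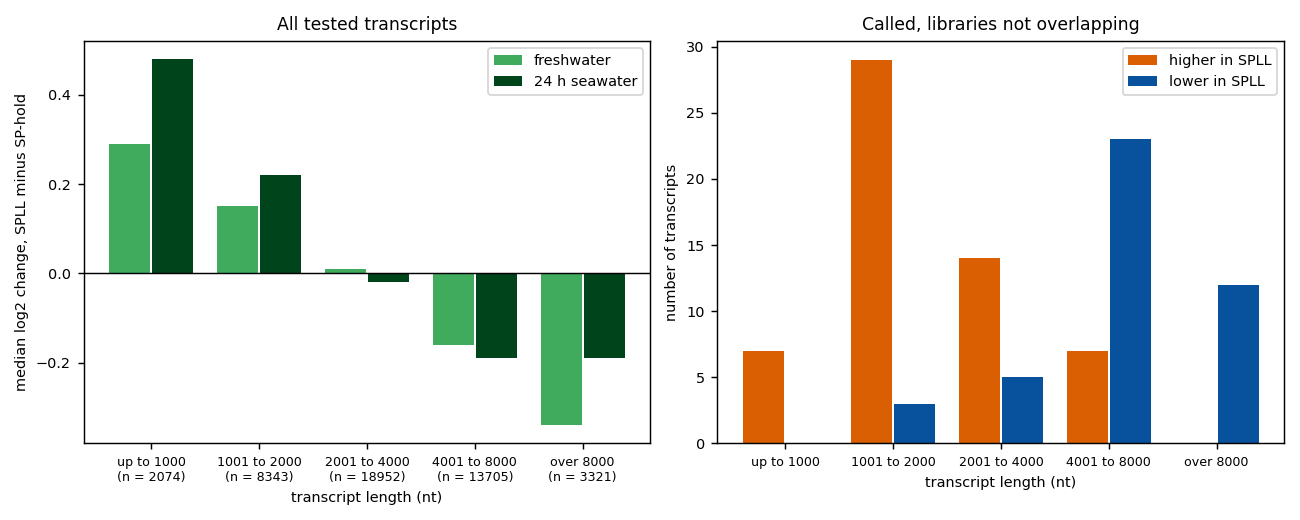
Left, the median log2 change, SPLL minus SP-hold, of all tested transcripts in 5 classes of transcript length, in freshwater (light bars) and after 24 h in seawater (dark bars), with the number of transcripts per class. Right, the number of members higher and lower in SPLL in the same classes; short classes hold mostly members that were higher and long classes mostly members that were lower.

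The condition of no overlap also depended on the scale. On CPM without TMM factors 46 of the 100 members had no overlap (0.746% of all tested transcripts, 197 higher and 149 lower). On the deposited TPM values 26 members had none, 14 higher and 12 lower (0.349% of all tested transcripts, 62 higher and 100 lower). Just inside the limit stood COPZ1 and RASD1, with 11.5 CPM in the lowest SPLL library against 11.5 CPM in the highest SP-hold library for COPZ1 and 61.3 against 61.2 CPM for RASD1. Just outside stood fkbp11, with 12.3 CPM in its lowest SPLL library against 12.4 CPM in its highest SP-hold library. Of the 234 called transcripts, 134 had overlapping libraries, and 67 of these carry a name.

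Among those 134 were transcripts whose photoperiod change was small in FW or, for pcmtd2a, in SW. The linker histone h1-10 had 0.26 in FW and 1.52 in SW (averaged FDR 0.0482, interaction FDR 0.162). KMT2E, a relative of the histone methyltransferases, had -0.27 in FW and -1.78 in SW (averaged FDR 0.0193, interaction FDR 0.0635). For ndst1b the change was 0.18 in FW. In SW it had 11.7 to 15.5 CPM in SPLL and 0 CPM in each SP-hold library (averaged FDR 0.00663, interaction FDR 0.00981). The change of pcmtd2a was -1.0 in FW and -0.01 in SW (averaged FDR 0.0259, interaction FDR 0.0419). By contrast c1qtnf6, a secreted C1q family protein, had 0.84 in FW and 0.59 in SW (averaged 0.71 ± 0.10, SE, FDR 0.0259) and overlapped by 1 library on each side, with 16.0 CPM in SPLL SW replicate 3 against 16.3 CPM in SP-hold FW replicate 2. No overlap but no call was found for 455 transcripts, 49 of them named, among them hmgb2a (0.57, FDR 0.0523), the calcium pump atp2a2 (-0.37, FDR 0.0593), the growth factor MDK (0.43, FDR 0.0615) and the neuropeptide precursor tac3b (0.55, FDR 0.0932).

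The gene lists were drawn from the 1304 tested transcripts with a name, many of them from the study's clusters. Of these 1304, edgeR called 51 (3.91%) higher and 60 (4.6%) lower in SPLL. The edgeR counts below are set beside these shares with no test of a list. Over all 46395 tested transcripts, 19.0% had an unadjusted p under 0.05 in the averaged edgeR contrast. Of the same 46395, DESeq2 called 1839 higher and 2450 lower, and limma voom called 1073 higher and 911 lower. Shares of the 1304 named transcripts are not given for these measures. The lists were not matched for transcript length, along which the median change ran from 0.38 to -0.31. In the refit without the length trend, manf (FDR 0.0508), fkbp11 (FDR 0.0936) and TMEDA (FDR 0.268) were not called. SC61G (FDR 0.0183), anp32b (FDR 0.0181) and KMT2E (FDR 0.0187) stayed called in it. In the list of 33 chromatin and transcription coregulators, 0 were called higher and 16 lower in SPLL, and the median change was -0.75 against -0.049 for all tested transcripts. However, 31 of the 33 come from clusters the study formed on these libraries. DESeq2 called 1 of the 33 higher and 29 lower, and edgeR without SPLL SW replicate 3 called 23 lower. Of 32 transcripts for ER folding and translocation, 4 rose (manf, fkbp11, SC61G and TMEDA), 0 fell (29 of the 32 had an unadjusted p under 0.05, and DESeq2 called 21 higher and 0 lower), and the median was 0.50. Without SPLL SW replicate 3, 8 of the 32 rose. Of 37 transcripts for linker histones, HMG proteins and histone chaperones, 4 rose (anp32b, h2az2b and h1-10 among them), 0 fell (DESeq2 called 15 higher and 0 lower), and the median was 0.26. Of 18 lipid and retinol binding proteins, 3 rose (fabp7b, rbp4 and fabp4) with a median of 0.55. Of 23 transcripts of the extracellular matrix and secreted factors, 4 rose (spon2b, c1qtnf6, pcolcea and SPRC) with a median of 0.41. Of 14 transcripts for ribosome biogenesis, 2 rose (mak16 and fcf1), and of 12 for polyamine and serine synthesis, 1 rose (psph).

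Some large lists had medians above 0 without calls. The median of 56 subunits of oxidative phosphorylation was 0.61 and all 56 had a change above 0, and the median of 171 ribosomal protein transcripts was 0.47 with 168 above 0, yet edgeR called none in either list. Without SPLL SW replicate 3 these medians were 0.40 and 0.29. An unadjusted p under 0.05 was found for 39 of the 56 and 67 of the 171, against 19.0% of all tested transcripts. The same share applies to the further counts of unadjusted p below. DESeq2 called 17 and 13 of them higher, limma voom called 14 and 8, and edgeR without SPLL SW replicate 3 called 4 of the 56 and 0 of the 171. The abundant transcripts that carry most names had a median of 0.31 (1091 tested outside the study's clusters), so a positive median in a named list is not particular to it. In the mixed list of ubiquitin ligases and proteasome, 4 of 40 fell (HUWE1, USP34 and zswim8 among them) and 0 rose, while 31 of 40 had a change above 0 and DESeq2 called 16 higher and 7 lower. In splicing and RNA processing, 2 of 51 rose (magoh and SFRS3) and 5 fell (3 transcripts of srrm1, khsrp and pcf11). The edgeR test called 0 of 12 transcripts in the circadian list (median -0.38), where 7 had an unadjusted p under 0.05, DESeq2 called 6 lower and limma voom 3. It called 0 of 24 in calcium handling (median 0.30), where 17 had an unadjusted p under 0.05 and DESeq2 called 6 higher and 4 lower. In cholesterol regulation it called 0 of 4 (median -0.31), where 1 had an unadjusted p under 0.05 and DESeq2 called that number lower. In the glucocorticoid list, RASD1 was the 1 call among 13, and in the list of cold-inducible RNA-binding proteins, Cirbp was the 1 call among 11 (0.42 ± 0.07, SE, FDR 0.0411). In the refit without the length trend Cirbp moved to 0.19 (FDR 0.211) and RASD1 to 0.32 (FDR 0.141).

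**Figure D5:**
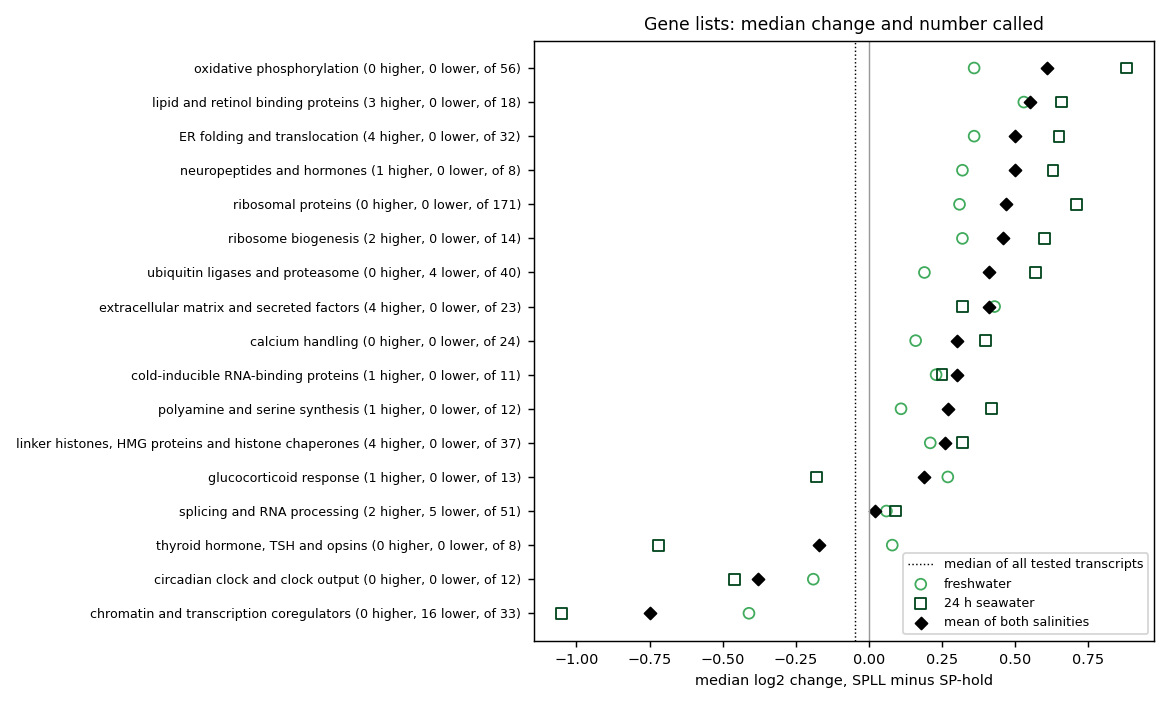
Median log2 change, SPLL minus SP-hold, of the gene lists with at least 8 tested transcripts, cell type markers not drawn, averaged over both salinities (diamonds), in freshwater (circles) and after 24 h in seawater (squares); labels give the number called higher and lower in SPLL of those tested. The chromatin and transcription coregulators lie furthest left at -0.75 and oxidative phosphorylation furthest right at 0.61 (0.40 without SPLL SW replicate 3, below 4 other lists drawn), against -0.049 (dotted line) for all tested transcripts. The lists were not matched for transcript length.

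No tested transcript on the list of genes tied to day length sensing was among the members. The thyroid hormone, TSH and opsin list had 9 named transcripts and 8 tested ones. Of those tested, edgeR, DESeq2 and limma voom called 0, and 2 had an unadjusted p under 0.05 (19.0% of all tested transcripts). The paper did not detect the tshb genes, glha1 or tshr in the SV, so the list says nothing of these. The opsin gene opn8b, which encodes a light-sensitive receptor, had 2.29 and 1.89 CPM in SPLL FW and 2.74, 3.05, 0.785 and 2.64 CPM in SPLL SW, against 4.42, 3.94, 3.12 and 3.49 CPM in SP-hold FW and 4.38, 3.37 and 3.76 CPM in SP-hold SW. These groups did not overlap, but at -0.77 ± 0.27 (SE) the FDR was 0.164 at this low level. Dio3a2, a deiodinase that inactivates thyroid hormone, had 2.61 to 6.75 CPM in SPLL and 0.77 to 3.32 CPM in SP-hold (0.71 ± 0.29, SE, FDR 0.227). The transcripts of dio2, which makes active thyroid hormone, averaged 0.84 and 1.03 CPM and had changes of -0.45 (FDR 0.621) and -0.03 (FDR 0.959). For dio2 ENSSSAT00000107235 the change was 1.06 in FW and -1.12 in SW. Its interaction missed the threshold (FDR 0.101). Opn8a1 (-0.37, FDR 0.463), Tmtopsin3a (-0.30, FDR 0.554) and a pair of rgrb transcripts (0.15, FDR 0.277, and 0.02, FDR 0.984) completed the tested transcripts.

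Ependymins, secreted glycoproteins that are very abundant in SV RNA, had fitted changes above 0 that did not pass the test. The epd transcript ENSSSAT00000133334 had 45291 and 64873 CPM in SPLL FW and 27569, 30245, 49832 and 36880 CPM in SPLL SW, against 24315, 31042, 30544 and 26709 CPM in SP-hold FW and 28156, 28001 and 23543 CPM in SP-hold SW. A pair of SPLL SW libraries lay within the SP-hold range, and the change was 0.71 ± 0.27 (SE, FDR 0.187). ENSSSAT00000082883 had a change of 0.55 (FDR 0.409) and ENSSSAT00000133331 of 0.75 (FDR 0.168).

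Markers of the tissue and of other cells were read beside these results. The list for the SV and its coronet cells held 7.57 to 11.5% of TPM in SPLL and 6.16 to 9.12% in SP-hold. Of its 11 transcripts edgeR called 0, and 5 had an unadjusted p under 0.05 (19.0% of all tested transcripts). DESeq2 called 3 higher and 0 lower, and limma voom called 1 higher and 1 lower. Erythrocyte markers held 2.83 to 11.4% of TPM in SPLL (up to 9.62% without SPLL SW replicate 3) and 2.81 to 5.49% in SP-hold. Of these 18 markers edgeR called 0, 6 had an unadjusted p under 0.05 and DESeq2 called 1 lower. Their median change was 0.69, with 0.09 in FW and 1.39 in SW, and it was 0.47 without SPLL SW replicate 3. The 1 pituitary marker with a name, growth hormone (gh1), had 1.27 to 270 CPM in SPLL and 2.88 to 11.2 CPM in SP-hold. Its change was 3.44 (2.93 in FW and 3.95 in SW, FDR 0.0942), and DESeq2 called it higher. Neuronal markers held 0.0937 to 0.145% of TPM in SPLL and 0.0778 to 0.133% in SP-hold, and 1 of 13, SNPH, was called lower, while DESeq2 called 4 higher and 4 lower. Endothelial markers held 0.0022 to 0.00453% in SPLL and 0.00271 to 0.00619% in SP-hold, and 1 of 4, stab2, was called lower, while DESeq2 called 2 lower. Glia and tanycyte markers held 1.11 to 1.59% in SPLL and 0.801 to 1.23% in SP-hold, with fabp7b the 1 call of 12, while DESeq2 called 4 higher and 1 lower. The edgeR test called 0 markers of oligodendrocytes (of 1), cilia (of 11), macrophages and lymphocytes (of 8) and muscle (of 6), where 0, 7, 2 and 3 had an unadjusted p under 0.05. DESeq2 called 0 of the oligodendrocyte markers and 0 of the macrophage and lymphocyte markers. It called 4 cilia markers higher and 2 lower, and 1 muscle marker higher and 1 lower. No marker was at 0 in every library. The part of these cell types in the members was not tested.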

How the data were processed

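RNA was extracted from SV tissue and sequenced as stranded, single-end mRNA libraries (n = 2 to 4 per group). The authors trimmed reads with Cutadapt and ran Salmon 1.1.0 with GC bias correction against the Ssal_v3.1 transcripts, and 3 libraries with few reads were left out by them. The deposited values are estimated counts (NumReads) and TPM per transcript. Estimated counts were rounded, and of 146780 transcripts the 46395 whose median CPM reached 0.77 were kept. A model with 4 group means was fitted to all of them by the edgeR 4.0.16 quasi-likelihood test with TMM scaling (9 residual degrees of freedom, R 4.3.3), and p-values were adjusted by Benjamini and Hochberg. SE was the log2 change over the root of F. Deposited TPM served for shares and for 1 alternative. No overlap was read on TMM-scaled CPM.

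Gene names came from the study's supplementary tables, and 30 from RefSeq genes covering over 50% of the same position, in all 1305 transcripts, of which 407 carry a zebrafish or mouse name only. No gene was named for the other transcripts. The rule for names took the 12 named members with the lowest p in each direction, the 5 with the largest change at a mean of at least 5 CPM, the 2 unnamed members of lowest p in each direction, up to 4 genes of each list by lowest p, the deiodinases, opsins and ependymins, and the study cluster that differed by photoperiod. The other named members and called list genes were added so that each is accounted for. The genes sparc, hmgb2a, atp2a2, MDK and tac3b were chosen after their values were seen. Some items are not reported here. The members and gene lists were chosen with earlier results of these data known. Alternatives were RLE size factors, DESeq2 1.42.0, limma 3.58.1 voom with quality weights, the legacy quasi-likelihood fit, other filters, effective length offsets, an additive model, a replicate block and each library left out. A length trend (lowess, span 0.3) and the other scales for overlap were added after seeing the data. The fit was tested on simulated counts, where 15 of 46195 unchanged transcripts were called. The changed transcripts called there were 46 and 8, so the share of false calls exceeded the FDR threshold of 0.05. No pair of libraries held the same values. Of the study's own comparison results, cluster membership was used to name and count transcripts, and no fold change or p-value was used.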

Additional observations from a re-analysis of the deposited data

Results flagged for a closer look

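Within groups of 4 libraries, single values stood far from the rest by Dixon's criterion, which chance alone meets in about 1 in 20 groups. The number of groups screened is not given, so the flagged values cannot be set against that rate. Among SPLL SW libraries, replicate 3 had reads for 54196 transcripts, the lowest. The same replicate had the highest value of psph (79.5 CPM), fabp7b (504 CPM), mak16 (22.7 CPM), SC61G (158 CPM), cssa10h1orf52 (52.9 CPM), magoh (53.8 CPM), SPRC (1198 CPM) and Dio3a2 (6.75 CPM). For TMEM59 it was replicate 1 that stood apart, with 106 CPM, the lowest. All of the named members among these remained called without SPLL SW replicate 3.

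Among SP-hold FW libraries, replicate 1 had the highest value of ubap2b (23.7 CPM) and of both EP300 transcripts (23.7 CPM on chromosome 1 and 5.23 CPM on chromosome 3). Single libraries also stood apart for chrne (18.7 CPM), Dio3a2 (0.77 CPM, the lowest) and rgrb ENSSSAT00000200844 (37.0 CPM).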

How the results depend on the processing

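The direction of every member held under each alternative that tested it, but the number of calls did not hold. Members were chosen for libraries that do not overlap, which leaves little room for a change of direction. Higher and lower in SPLL, DESeq2 called 1839 and 2450, limma voom with quality weights 1073 and 911, and a median of at least 5 CPM 428 and 538. RLE size factors gave 63 and 102, effective length offsets 16 and 24, the length trend 27 and 26, no filter 5 and 3, and an additive model 1 and 1. Of the 100 members, 72 were called with RLE size factors, 96 with limma voom, 18 with effective length offsets and 4 with no filter. DESeq2 called 99 of 99 with an adjusted p. Called transcripts with no overlap, 57 higher and 43 lower, became 312 and 167 with DESeq2, 268 and 120 with limma voom and 163 and 81 at a median of at least 5 CPM. They became 11 and 10 with effective length offsets, 16 and 9 with the length trend, 3 and 1 with no filter, 1 and 1 in the additive model, 29 and 28 on CPM without TMM factors, and 14 and 18 on TPM. The cause was not tested. With each library left out in turn, calls ranged from 6 (without SPLL SW replicate 4) to 224 (without SPLL SW replicate 3) higher and from 4 (without SPLL SW replicate 4) to 288 (without SP-hold FW replicate 3) lower. With no overlap they ranged from 2 to 117 higher and from 2 to 169 lower.

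A replicate block gave 5 higher and 4 lower calls, and 3 and 0 with no overlap. The members among these calls were gsnb, psph and fabp7b. Deviations of libraries with the same number correlated between -0.035 and 0.089, which gave no sign that the numbers pair the libraries. Deviations from the means of such small groups could hardly show a pairing, so the check does not exclude it. The dio2 transcript ENSSSAT00000107235 (-0.03) turned to 0.02 with effective length offsets, 0.11 with limma voom and 0.02 with the block, and ranged from -0.11 to 0.01 with libraries left out. The rgrb transcript ENSSSAT00000146876 (0.02) turned to -0.02 with effective length offsets, -0.05 with the block and -0.10 with the length trend, and ranged from -0.10 to 0.15 with libraries left out. The freshwater test rests on 2 SPLL FW libraries and was not simulated. For the averaged contrast, most changes of 2-fold were missed in simulated data.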
